A study of Sus scrofa with 6 samples.

Results

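The genes described here are the core of the ATF4 arm of the integrated stress response and the hormones that it releases, measured in the skeletal muscle of UCP1 knock-in (KI) pigs. The 10 genes *ATF4*, *ATF5*, *DDIT3*, *TRIB3*, *ASNS*, *PHGDH*, *PSAT1*, *SESN2*, *FGF21* and *GDF15* were chosen by name and looked up by pig Ensembl symbol among the 30476 genes of the count table. Of these, 9 were found, and *ATF4* itself was not analysed here. A floor of at least 10 counts in at least 3 pigs was reached by 8 of the 9, and the same 8 were tested among 13402 genes. *GDF15* lay under the floor, with fewer than 10 counts in every pig.

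The samples were pieces of longissimus dorsi, a muscle of the back, taken at 6 months of age from 3 UCP1 KI pigs and 3 wild-type (WT) pigs, with 1 RNA-seq library per pig, and are written KI1 to KI3 and WT1 to WT3 by replicate number. In the KI pigs a *UCP1* gene had been inserted with CRISPR/Cas9 so that it is expressed in adipocytes, the cells that store fat, and pigs lack a working *UCP1* of their own. Muscle fibres are therefore not the cells in which the transgene is meant to act, and the comparison asks what differs in muscle when fat cells carry UCP1, a mitochondrial protein that releases energy as heat. The labels do not give the sex of the pigs or say whether they were littermates, so the p values measure the spread between these 6 pigs.

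In the integrated stress response, kinases that sense misfolded proteins, missing amino acids, viral RNA or failing mitochondria phosphorylate the translation factor eIF2α. Most protein synthesis then slows, while the mRNA of *ATF4* is translated more, and the ATF4 protein switches on genes for amino acid synthesis and uptake, for redox balance and for the feedback that ends the response. In muscle, mitochondrial dysfunction is known to engage this pathway and to make fibres secrete FGF21 and GDF15, which are called mitokines because they carry news of mitochondrial stress to fat, liver and brain. ATF4 is controlled mainly at translation, so the mRNA of its targets is the usual readout in RNA-seq.

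Total counts on genes ranged from 30220951 to 35066624 per pig, and 3 counts corresponded to at most 0.1096 CPM, the unit of level used here, in which a count is set against the scaled total of its library. The 20 most abundant genes held between 39.0% and 44.0% of the counts in UCP1 KI pigs and between 44.5% and 56.5% in WT pigs, with the highest share in WT2, and CPM values were scaled by edgeR's TMM factors, which ranged from 0.781 to 1.18. Of 9 skeletal muscle fibre markers, 3 were found by symbol (*ACTA1*, *CKM* and *TNNT3*), and their summed level was 47521 to 82487 CPM in UCP1 KI pigs and 65830 to 94095 CPM in WT pigs. A gene was taken as higher or lower in UCP1 KI pigs when the unadjusted p of edgeR's quasi-likelihood F test was under 0.05 and the absolute log2 fold change was above 0.5, called both limits here. With these limits, 8.19% of all genes tested passed, 3.84% as higher and 4.34% as lower in UCP1 KI pigs. After Benjamini-Hochberg adjustment over all genes, edgeR called 0 genes at 0.05 (1100 had an unadjusted p under 0.05), and DESeq2 called 127, which held 0 of the 8 genes and, of the 21 list genes named by rule below, *CEBPB* and *CBS*.

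Of the 8 tested genes, 2 passed both limits, *ATF5* as higher and *PHGDH* as lower in UCP1 KI pigs. *PHGDH* reached the floor through the WT pigs, where it is high, and with at least 10 counts in every pig it was not kept and 1 gene passed. The median log2 fold change of the 8 genes was 0.11, with 4 positive and 4 negative values between -1.73 and 1.17, beside a median of -0.02 over all genes tested. The median of the 8 was -0.32 without KI1, 0.025 without WT1 and 0.35 with scaling by library size only. The signs differed between the roles of the genes. All 4 tested regulators (*ATF5*, *DDIT3*, *TRIB3*, *SESN2*) had positive log2 fold changes, from 0.44 to 1.17, although *TRIB3* was at -0.011 without KI1. The 3 amino acid enzymes (*ASNS*, *PHGDH*, *PSAT1*) had negative ones, from -1.73 to -0.22, although *ASNS* was at 0.042 with scaling by library size only and at 0.077 without WT2. Most of these values did not pass the limits. The grouping by role was not among the planned comparisons, and *TRIB3* and *SESN2* are ATF4 targets like *ASNS*. The difference in sign between the roles was not tested.

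**Figure D1:**
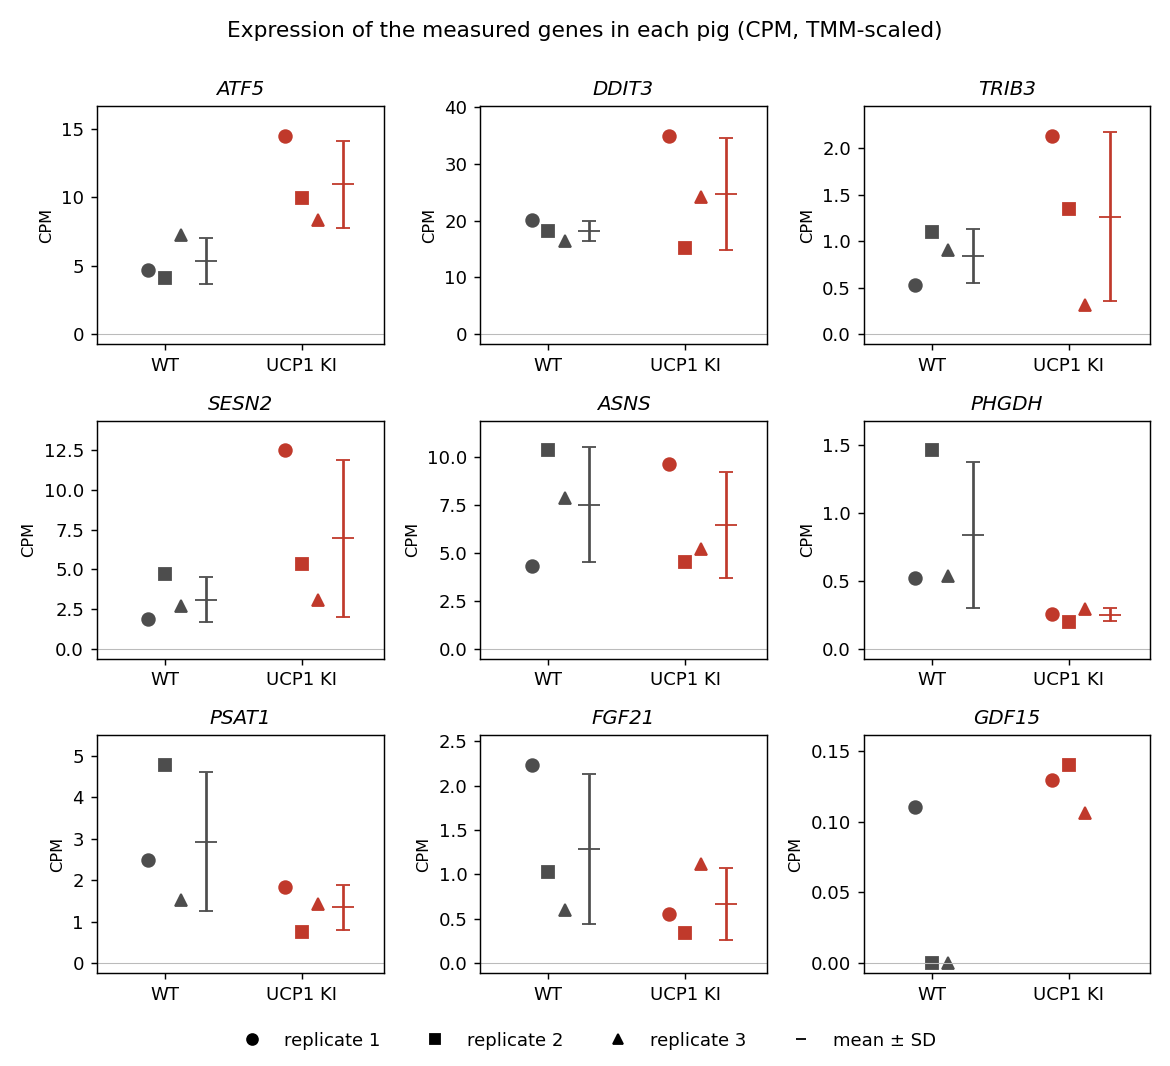
Level of each of the 9 genes found (CPM, linear axes that differ between panels) in the 3 WT pigs and the 3 UCP1 KI pigs. Points are pigs, with the shape giving the replicate number, and bars are the mean ± SD of a group, left out for *GDF15*, which lay under the count floor. The groups do not overlap for *ATF5* and *PHGDH*, and KI1 is the highest point of the panels of all 4 regulators.

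*ATF5* (ENSSSCG00000003201, chr6:54945067-54950142 in Sscrofa11.1) encodes a bZIP transcription factor related to ATF4, which is translated under the same control and is linked to the mitochondrial unfolded protein response. Its level was 14.5, 9.98 and 8.37 CPM in KI1 to KI3, and 4.71, 4.09 and 7.24 CPM in WT1 to WT3. All UCP1 KI pigs lay above all WT pigs, with KI3 close to WT3. The means were 10.9 ± 3.17 and 5.35 ± 1.67 CPM (SD, n = 3 each), a ratio of 2.05. This gave a log2 fold change of 1.03 with an SE of 0.34 and a 95% confidence interval of 0.25 to 1.81 (edgeR, p = 0.0160, adjusted p = 0.583, exact permutation p = 0.1). The exact permutation test, two-sided on log2(CPM + 1), cannot go below 0.1 with 3 pigs against 3. Groups without overlap and with UCP1 KI pigs higher were found for 7.59% of all genes tested.

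The *ATF5* call held in 3 of the 6 fits without a pig, which leave 2 pigs in a group. It was lost without KI1 (log2 fold change 0.78), without WT1 (0.95) and without WT2 (0.87). The gene's span overlaps in the RefSeq annotation with *IL4I1*, an amino acid oxidase gene of immune cells, and with *NUP62*, a nuclear pore gene listed at 0 counts in every pig. *IL4I1* was at 15.3 ± 0.753 CPM in UCP1 KI pigs and 10.8 ± 2.30 CPM in WT pigs, with a log2 fold change of 0.51 that did not pass (edgeR, adjusted p = 0.630). Reads shared between overlapping genes cannot be told apart here.

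*DDIT3* (ENSSSCG00000050998, chr5:22785441-22789867) encodes CHOP, a transcription factor that works with ATF4 and promotes cell death when stress lasts. Its level was 34.96, 15.2 and 24.2 CPM in KI1 to KI3, and 20.1, 18.1 and 16.5 CPM in WT1 to WT3. The groups overlapped, since KI2 was the lowest of all pigs and KI1 the highest. The log2 fold change was 0.44 (SE 0.32, 95% confidence interval -0.31 to 1.19, edgeR p = 0.208, adjusted p = 0.725, exact permutation p = 0.4), and it was 0.11 without KI1. In the RefSeq annotation *DDIT3* overlaps with *MARS1*, the cytosolic methionyl-tRNA synthetase, at 43.7 ± 1.80 CPM in UCP1 KI pigs and 25.4 ± 5.14 CPM in WT pigs. *MARS1* passed both limits as higher, with a log2 fold change of 0.78 (SE 0.23, edgeR adjusted p = 0.583). Reads shared between *DDIT3* and *MARS1* cannot be told apart here.

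*TRIB3* (ENSSSCG00000039862, chr17:34808273-34819592) encodes a pseudokinase that is induced by ATF4 and CHOP and limits their activity. Its level was 2.13, 1.35 and 0.318 CPM in KI1 to KI3, and 0.524, 1.10 and 0.901 CPM in WT1 to WT3. UCP1 KI pigs held both the highest and the lowest value, with 66 counts in replicate 1 and 12 in replicate 3. Its log2 fold change was 0.59 with an SE of 0.69 (95% confidence interval -1.02 to 2.20, edgeR p = 0.421, adjusted p = 0.832, exact permutation p = 0.6), an interval that covers a 2-fold difference in either direction.

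*SESN2* (ENSSSCG00000029438, chr6:85321982-85348044) encodes sestrin 2, a leucine sensor that restrains the growth kinase mTORC1 and is a known ATF4 target. Its level was 12.5, 5.30 and 3.05 CPM in KI1 to KI3, and 1.87, 4.67 and 2.70 CPM in WT1 to WT3. KI1 stood far above the other 5 pigs, whose values overlapped. The log2 fold change of 1.17 was the highest of the 8 genes, with an SE of 0.57 (95% confidence interval -0.16 to 2.502, edgeR p = 0.0765, adjusted p = 0.631, exact permutation p = 0.2), and it did not pass. The value was 0.44 without KI1, and it passed both limits at 1.54 without KI3, at 1.60 without WT2 and at 1.41 with scaling by library size only.

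**Figure D2:**
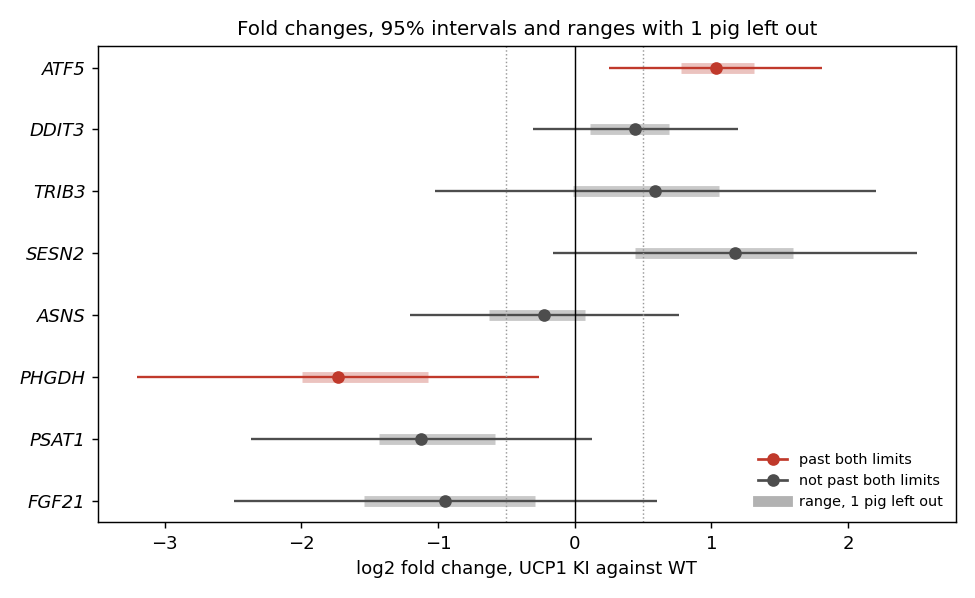
Log2 fold change of UCP1 KI against WT pigs for the 8 tested genes (points), with the 95% confidence interval (thin lines) and the range of the value with each pig left out in turn (thick bars); dotted lines mark the fold change limits. The intervals of *ATF5* (0.25 to 1.81) and *PHGDH* (-3.20 to -0.26) do not cross 0, and the left-out ranges of *TRIB3* and *ASNS* do.

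Among the enzymes, *PHGDH* (ENSSSCG00000006717, chr4:101445977-101478144) encodes phosphoglycerate dehydrogenase, which starts serine synthesis from a glycolytic intermediate. Its level was 0.259, 0.196 and 0.291 CPM in KI1 to KI3, and 0.524, 1.46 and 0.534 CPM in WT1 to WT3. All UCP1 KI pigs lay below all WT pigs, and WT2 stood well above the other two. These levels rested on 8, 7 and 11 counts in UCP1 KI pigs and 19, 40 and 16 counts in WT pigs, so that the gene reached 10 counts in 1 UCP1 KI pig and in all 3 WT pigs and passed the floor through the WT pigs. The means were 0.249 ± 0.0483 and 0.840 ± 0.538 CPM (SD, n = 3 each), and the log2 fold change was -1.73 with an SE of 0.63 and a 95% confidence interval of -3.20 to -0.26 (edgeR, p = 0.0266, adjusted p = 0.583, exact permutation p = 0.1). Groups without overlap and with WT pigs higher were found for 7.69% of all genes tested. With a pig dropped or another scaling, the call was lost without WT2 (log2 fold change -1.08), without KI1 (-1.76), without KI2 (-1.60) and with scaling by library size only (-1.41).

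*PSAT1* (ENSSSCG00000005287, chr1:231142673-231172364) encodes phosphoserine aminotransferase, the next enzyme of serine synthesis. Its level was 1.84, 0.757 and 1.43 CPM in KI1 to KI3, and 2.48, 4.78 and 1.54 CPM in WT1 to WT3. WT2 was again the highest and KI2 again the lowest pig, and the groups overlapped between KI1 and WT3. *PSAT1* had a log2 fold change of -1.12 (SE 0.54, 95% confidence interval -2.37 to 0.12, edgeR p = 0.0711, adjusted p = 0.630, exact permutation p = 0.2). It was -0.58 without WT2 and passed both limits without WT3 (-1.43).

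*ASNS* (ENSSSCG00000015340, chr9:77318341-77336290) encodes asparagine synthetase, a classical ATF4 target. Its level was 9.61, 4.52 and 5.19 CPM in KI1 to KI3, and 4.33, 10.3 and 7.88 CPM in WT1 to WT3. Each group held high and low pigs, and the lowest and the highest of the 6 were both WT pigs. The means were 6.44 ± 2.76 and 7.51 ± 3.02 CPM (SD, n = 3 each), with a log2 fold change of -0.22 (SE 0.42, 95% confidence interval -1.21 to 0.76, edgeR p = 0.614, adjusted p = 0.899, exact permutation p = 0.8). The groups did not differ beyond their spread, and the interval covers more than a 1.5-fold difference in either direction.

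Of the secreted hormones, *FGF21* (ENSSSCG00000003140, chr6:54082653-54084532) acts on fat, liver and brain through FGF receptors with the co-receptor β-Klotho. Its level was 0.550, 0.337 and 1.11 CPM in KI1 to KI3, and 2.23, 1.02 and 0.601 CPM in WT1 to WT3. WT1 was the highest pig and the others overlapped, with KI3 above WT2 and WT3. The log2 fold change was -0.95 (SE 0.67, 95% confidence interval -2.49 to 0.60, edgeR p = 0.195, adjusted p = 0.718, exact permutation p = 0.4), and it was -0.29 without WT1. *FGF21* and *ATF5* lie on the same chromosome, 860534 bases apart with 57 RefSeq genes between them, and their log2 fold changes had opposite signs.

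*GDF15* (ENSSSCG00000034260, chr2:59409035-59411356) encodes a hormone that reduces appetite through the receptor GFRAL in the hindbrain. It had 4, 5 and 4 counts in KI1 to KI3 and 4, 0 and 0 counts in WT1 to WT3, or 0.129, 0.140, 0.106, 0.1096, 0 and 0 CPM. All pigs were thus near the limit of 3 counts that a count of 0 allows, the groups overlapped, and an exact permutation test gave p = 0.2. With all 20062 genes that had any count in the fit, edgeR gave a log2 fold change of 1.61 with an SE of 1.58 (adjusted p = 0.763), a value that depends on the prior count. A difference in *GDF15* mRNA was not detectable at this depth.

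**Figure D3:**
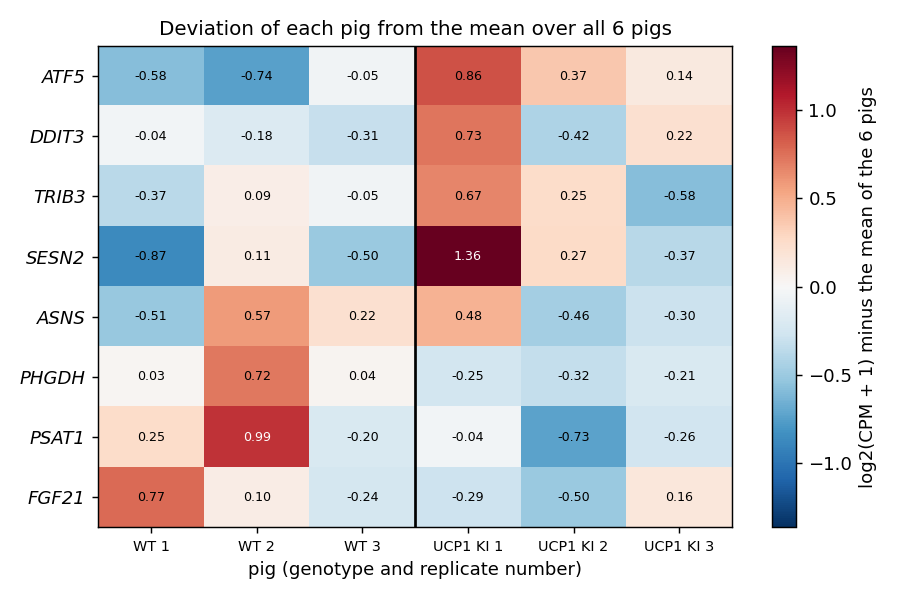
Deviation of each pig from the mean over all 6 pigs, on the scale of log2(CPM + 1), for the 8 tested genes; red is above and blue below the mean, with the value printed in each cell. KI1 has the highest value in *ATF5*, *DDIT3*, *TRIB3* and *SESN2*, and WT2 in *ASNS*, *PHGDH* and *PSAT1*.

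Single pigs stood out across several of the genes. KI1 was the highest of the 6 pigs in 4 of the 8 tested genes, which are the 4 regulators, and the lowest in 0. WT2 was the highest in 3, which are the 3 enzymes, and WT1 in 1, *FGF21*. KI2 was the lowest in 4 genes (*DDIT3*, *PHGDH*, *PSAT1* and *FGF21*). WT2 is also the pig with the largest share of counts in its 20 most abundant genes and the smallest TMM factor. Without KI1, 0 of the 8 genes passed both limits and 5 of the 8 log2 fold changes were negative. Without WT2, 1 passed, *SESN2*, while *ATF5* and *PHGDH* did not.

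The other genes of the pathway and of related responses were taken from 9 lists with 92 genes, of which 88 were found and 82 tested. Both limits were passed by 11 of the 82 (13.4%, beside 8.19% of all genes), 8 as higher and 3 as lower, and 48 of the 82 log2 fold changes were positive with a median of 0.12, or 0.047 without WT1. This split was 12 higher and 0 lower with scaling by library size only, where the median was 0.36, and 8 higher and 0 lower without KI3. Of the 11 calls, 4, all higher, were in the list of the other arms of the unfolded protein response, which had 9 tested genes. The 8 kinases that phosphorylate eIF2α and their relay proteins held 1 positive and 7 negative values, with a median of -0.16, which was -0.035 without KI2, -0.26 without KI3 and 0.087 with scaling by library size only. The signs were 4 positive and 4 negative without KI2, and 6 positive and 2 negative with scaling by library size only. *EIF2AK2*, the kinase PKR that binds double-stranded RNA, passed as lower at 11.4 ± 2.73 against 19.2 ± 6.03 CPM (log2 fold change -0.76, edgeR adjusted p = 0.603), and this call was lost without KI2 (-0.82), KI3 (-0.57) or WT2 (-0.47) and with scaling by library size only (-0.48). *EIF2AK3*, the kinase PERK of the endoplasmic reticulum, was at -0.10 (adjusted p = 0.923), and *DELE1*, which relays mitochondrial stress to the kinase HRI, at 0.52 (adjusted p = 0.746). *DELE1* passed both limits without WT3 (1.01) and was at 0.24 without WT2.

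Of 11 tested subunits of eIF2, eIF2B and the eIF2α phosphatase, 1 passed as higher and the median was 0.20, which was 0.36 without WT3 and 0.49 with scaling by library size only, where 3 passed. The 1 call was *EIF2B5*, the catalytic subunit of the exchange factor eIF2B on which phosphorylated eIF2α acts, at 38.6, 42.0 and 55.8 CPM in KI1 to KI3 and 19.96, 26.3 and 30.6 CPM in WT1 to WT3. The groups did not overlap, the log2 fold change was 0.83 (SE 0.26, edgeR adjusted p = 0.583), and the call held with each of the 6 pigs left out. *PPP1R15A*, the GADD34 subunit that ATF4 and CHOP induce to reverse the phosphorylation, had a log2 fold change of 0.02 (SE 0.30, adjusted p = 0.984), and *PPP1CA*, a catalytic phosphatase subunit, of 0.44 (adjusted p = 0.638), which passed both limits at 0.72 with scaling by library size only.

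Of 14 bZIP partners and stress regulators, 1 passed, as higher, while with DESeq2 1 passed as higher and 1 as lower. *CEBPB*, a bZIP factor that pairs with ATF4, was at 396 ± 33.1 CPM in UCP1 KI pigs and 149 ± 34.2 CPM in WT pigs, with a log2 fold change of 1.41 (SE 0.27, edgeR adjusted p = 0.386, DESeq2 adjusted p = 0.000223), and it passed both limits in each of the 6 fits without a pig. *EIF4EBP1*, a repressor of cap-dependent translation, had a log2 fold change of 0.70 (adjusted p = 0.611) and did not pass. It passed both limits without KI3 (0.93), with scaling by library size only (0.97) and with all genes that had any count (0.72), and was at 0.36 without KI2. *ATF3*, a stress-induced bZIP repressor, was at 309, 288 and 98.5 CPM in KI1 to KI3 and 536, 324 and 489 CPM in WT1 to WT3, and its groups did not overlap, yet its log2 fold change of -0.96 did not pass (adjusted p = 0.628). *ATF3* was singled out after its values were seen, as were *EIF2AK3*, *PPP1R15A*, *SESN1*, *DDIT4* and *SHMT2*. The sestrin gene *SESN1* ranged from 21.7 to 319 CPM in UCP1 KI pigs and from 20.8 to 104 CPM in WT pigs (log2 fold change 1.42, adjusted p = 0.698), and its highest pig was KI3, where *SESN2* was lowest among UCP1 KI pigs. *DDIT4*, an mTORC1 inhibitor gene, was at 161 CPM in that pig and between 29.6 and 59.9 CPM in the other 5.

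In the other enzymes of serine, glycine and folate metabolism, 6 of 8 log2 fold changes were negative, with a median of -0.39 (-0.16 with scaling by library size only). *MTHFD1*, a cytosolic folate enzyme, passed as lower at 16.1 ± 1.503 against 26.5 ± 10.4 CPM (log2 fold change -0.71, edgeR adjusted p = 0.608), and its call was lost without KI1 (-0.66), KI2 (-0.70), KI3 (-0.79) or WT3 (-0.35), with scaling by library size only (-0.44) and with all genes that had any count (-0.70). *PSPH*, the last enzyme of serine synthesis after *PHGDH* and *PSAT1*, was at 2.11 ± 1.08 against 4.14 ± 1.65 CPM, with a log2 fold change of -0.97 that did not pass (adjusted p = 0.649), but passed without KI1 (-1.36) and was -0.63 without KI2. *SHMT2*, the mitochondrial enzyme that turns serine into glycine, was at 0.02 (SE 0.28, adjusted p = 0.984).

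Among 9 enzymes of proline, aspartate and transsulfuration metabolism, 1 passed. *CBS*, cystathionine β-synthase, which uses serine and homocysteine to start cysteine synthesis, was at 1.003, 1.23 and 1.32 CPM in KI1 to KI3 and at 0.303, 0.256 and 0.200 CPM in WT1 to WT3. The groups did not overlap. The values rested on 31, 44 and 50 counts in KI1 to KI3 and 11, 7 and 6 in WT1 to WT3, so that *CBS* reached 10 counts in 3 UCP1 KI pigs and 1 WT pig, passed the floor through the UCP1 KI pigs, and was not kept with at least 10 counts in every pig. Its log2 fold change was 2.21 (SE 0.48, edgeR adjusted p = 0.463, DESeq2 adjusted p = 0.0298), at 2.07 to 2.36 with single pigs dropped. The aspartate aminotransferase *GOT2* (log2 fold change 0.34, adjusted p = 0.748, from 0.18 without WT2 to 0.53 without WT1) and the argininosuccinate synthase *ASS1* (-0.46, adjusted p = 0.712) did not pass, although *ASS1* passed without WT3 (-0.73).

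Of 7 tested amino acid transporters, 1 passed as higher and 1 as lower. *SLC3A2*, the heavy chain that carries several transporters to the membrane, was at 76.0, 118 and 165 CPM in KI1 to KI3 and at 23.7, 31.6 and 87.4 CPM in WT1 to WT3. The groups overlapped through WT3, and the log2 fold change of 1.33 (SE 0.53, edgeR adjusted p = 0.603) lost its call without KI2 (1.33), KI3 (1.03), WT1 (1.003) or WT2 (1.11) and was 2.11 without WT3. *SLC38A2*, the glutamine and alanine transporter SNAT2, was lower at 198 ± 41.1 against 304.5 ± 8.91 CPM (log2 fold change -0.62, adjusted p = 0.603), and its call held without KI2 (-0.81) and was lost with each of the other 5 pigs left out at values from -0.64 to -0.51, with scaling by library size only (-0.36) and with all genes that had any count (-0.60).

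The receptors of the mitokines held 0 calls among 6 tested, with a median of -0.32 that ranged from -0.77 without KI1 to -0.016 without WT2, where 1 gene passed as lower, and was -0.045 with scaling by library size only. *FGFR4* had a log2 fold change of -1.29 (adjusted p = 0.678) with WT1 alone at 11.5 CPM, and it was 0.041 without that pig and passed both limits without WT2 (-1.71). *FGFR3* was at 0.69 (adjusted p = 0.763), and at 0.27 without WT2. *KLB*, the gene of β-Klotho, was at 3.78, 3.90 and 1.88 CPM in KI1 to KI3 and 1.71, 5.15 and 4.30 CPM in WT1 to WT3, with overlapping groups (log2 fold change -0.22, adjusted p = 0.912). *GFRAL*, the GDF15 receptor, had 0 counts in every pig, and its partner *RET* did not pass (-0.66, adjusted p = 0.776). *KLB*, *GFRAL* and *RET* were also chosen after their values were seen.

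**Figure D4:**
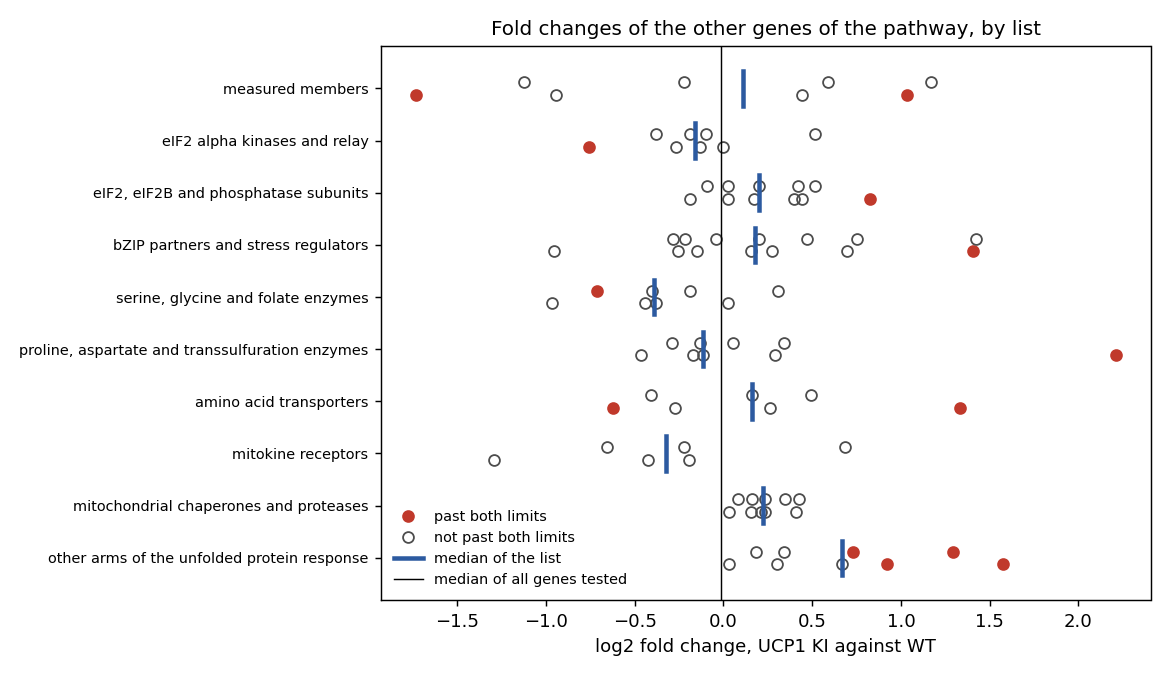
Log2 fold change of UCP1 KI against WT pigs for the 8 tested genes (measured members) and for the 82 tested genes of the 9 other lists, 1 point per gene. Filled red points passed both limits, blue bars are the median of a list and the vertical black line is the median of all genes tested, -0.02. All 9 points of the other arms of the unfolded protein response and all 10 of the mitochondrial chaperones and proteases lie above 0.

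The mitochondrial chaperones and proteases, whose genes rise in the mitochondrial unfolded protein response, held 10 positive values of 10 with a median of 0.22, and 0 of them passed both limits. The median was 0.13 without WT1, 0.49 without WT3 and 0.47 with scaling by library size only. *CLPP*, a matrix protease, had a log2 fold change of 0.43 (adjusted p = 0.654), and *HSPD1*, the chaperonin HSP60, of 0.41 (adjusted p = 0.758, and from 0.19 without KI2 to 0.72 without WT3). All 10 stayed positive with library size only and with median-of-ratios scaling, and 1 to 3 of the 10 turned negative without KI1, KI2, KI3 or WT1.

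The other arms of the unfolded protein response of the endoplasmic reticulum, which run through ATF6 and IRE1, held 4 calls among 9 tested genes, all higher in UCP1 KI pigs, with a median of 0.67. Whether genes of this list also respond to ATF4 was not tested. The chaperone BiP, *HSPA5*, was at 244, 375 and 104 CPM in KI1 to KI3 and at 79.9, 69.3 and 92.9 CPM in WT1 to WT3. The groups did not overlap, although KI3 lay close to WT3. Its log2 fold change was 1.58 (SE 0.45, edgeR adjusted p = 0.583), and it passed in each of the 6 fits without a pig, at 1.11 to 1.94.

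*HERPUD1*, a gene of protein degradation at the endoplasmic reticulum, was also without overlap at 89.9 ± 13.2 against 54.3 ± 13.1 CPM (log2 fold change 0.73, edgeR adjusted p = 0.583). *MANF*, a secreted protein of the endoplasmic reticulum (0.92, adjusted p = 0.583), and *HSP90B1*, the chaperone GRP94 (1.29, adjusted p = 0.603), passed with overlapping groups, since KI3 lay within the range of the WT pigs. *HSP90B1* was at 161, 363 and 73.6 CPM in KI1 to KI3 and between 67.5 and 89.9 CPM in WT pigs, and without KI2 its log2 fold change was 0.53. The call of *HERPUD1* was lost without KI2 (0.59), WT1 (0.56) or WT2 (0.73). Those of *MANF* (1.22) and *HSP90B1* (1.68) held without KI3 and were lost with each other pig left out, at 0.67 to 0.98 for *MANF* and 0.53 to 1.43 for *HSP90B1*. The list thus held 1 call, *HSPA5*, without KI2 and 1 without WT1. KI2 was the highest pig for *HSPA5*, *HERPUD1*, *MANF* and *HSP90B1*, and KI1 for *ATF5*, *DDIT3*, *TRIB3* and *SESN2*.

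The genes whose pattern over the 6 pigs was most like that of *ATF5*, by Pearson's r of log2(CPM + 1) among 7594 genes with a mean over 5 CPM, were *ZNF689* (r = 0.996), *ADISSP* (0.984) and *SFXN4* (0.978). The most opposite were *CALD1* (-0.986), *PLCG1* (-0.981) and *MMD* (-0.978). These correlations are a description over 6 pigs of 2 genotypes, chosen as extremes. The r of *SESN2* with *ATF5* was 0.708 and was exceeded by 636 genes, that of *DDIT3* was 0.540 and was exceeded by 1483, and that of *ASNS* was 0.0417.

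A muscle piece holds cells other than fibres, and in such bulk samples fewer cells of a type and less RNA per cell cannot be told apart. The summed level of 6 fibroblast markers was 235 to 435 CPM in UCP1 KI pigs and 742 to 1187 CPM in WT pigs without overlap, 4 of the 6 passed as lower, and WT2 was highest, as it was for the 3 enzymes. The 4 were *LUM* and the collagen genes *COL1A1*, *COL1A2* and *COL3A1*, with *COL3A1* the most abundant at 138 ± 77.3 against 412 ± 122 CPM. *PDGFRA* was at 10.3 ± 1.89 against 10.9 ± 4.84 CPM (log2 fold change -0.08, edgeR adjusted p = 0.960), and *DCN* did not pass. The 6 adipocyte markers summed to 66.2 to 131.6 CPM in UCP1 KI pigs and 69.0 to 297 CPM in WT pigs, again with WT2 highest, and 1 of 5 tested passed, as higher. KI2, the highest pig for the 4 unfolded protein response calls, was also highest for the leukocyte and endothelial sums. The 7 leukocyte markers summed to 22.6 to 65.5 and 19.5 to 39.1 CPM, with 2 passing as higher, and the 4 endothelial markers found to 272.5 to 508 and 251 to 457 CPM, with 1 passing as higher. The 4 red blood cell markers summed to 11.4 to 76.0 CPM in UCP1 KI pigs and 105 to 180 CPM in WT pigs without overlap, with 0 of 3 tested passing, and the 4 Schwann cell markers found to 52.3 to 61.7 and 51.6 to 66.1 CPM. In the red blood cell sum, *HBB* alone was at 11.3 to 74.8 CPM in UCP1 KI pigs and 103 to 177 CPM in WT pigs. None of the markers found was a gene at 0 counts in all pigs, and the part of these cell types in the values of the ATF4 genes was not tested.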

How the data were processed

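The authors extracted RNA with TRIzol, made mRNA libraries and sequenced paired ends. They trimmed reads with Trimmomatic 0.36, mapped them with HISAT2 2.0 and used StringTie 1.3.3b for expression. The authors deposited raw counts per Ensembl gene, in a single column for each pig, with 0 columns unused. The build Sscrofa11.1 is named in the submitters' processing notes. The counting program and its use of strand are not given in the sources used here.

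Pig gene names were looked up in an Ensembl table, positions and overlaps from the RefSeq annotation of Sscrofa11.1. In R 4.3.3, edgeR 4.0.16 kept genes by filterByExpr, scaled libraries by TMM and tested genotype, without covariates, by the two-sided quasi-likelihood F test, with Benjamini-Hochberg adjustment over 13402 genes. For list genes only the adjusted p is given. The procedure was tested on simulated data. Exact permutation tests enumerated 20 assignments of the pigs on log2(CPM + 1).

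The 10 genes and all lists were chosen with earlier results of these data known. Every one of the 10 was named, with each list gene past both limits, the smallest-p pair of each list with a mean over 1 CPM, and the 3 genes most like and most unlike *ATF5*. Alternatives were DESeq2 1.42.0, median-of-ratios factors, library size only, 3 other count filters, genes with a symbol only, no fold change limit, the replicate number as a block, and each pig left out.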

Additional observations from a re-analysis of the deposited data

How the results depend on the processing

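Of the alternative results for the 8 tested genes, 96 kept direction and side of the limits, 8 lost the call, 4 gained one and 3 changed sign. These 3 were *TRIB3* without KI1 (-0.011, within -0.011 to 1.06 with each pig left out), and *ASNS* with library size only (0.042) and without WT2 (0.077, within -0.63 to 0.077). Of those for the 21 named list genes, 247 kept both, 36 lost the call, 8 gained one and 1 changed sign, *FGFR4* without WT1 (0.041, within -1.78 to 0.041). The cause was not tested. The 2 calls among the 8 genes became 1 with at least 10 counts in every pig, where *PHGDH* was not kept, and 0 to 3 with each pig left out, with 0 without KI1. The 11 calls of the lists became 5 to 10 with each pig left out, with 5 without KI2, 6 without WT1 and 7 without WT2. The 1097 calls over all genes became 651 to 1514, with 651 without KI2 and 683 without WT2. Library size only shifted the median of all genes by 0.25 (log2), and 82.7% of the calls were then higher in UCP1 KI pigs, against 46.9% with TMM. *ATF5* and *SESN2* were then the 2 calls.

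The labels do not say whether the replicate numbers pair the pigs. Same-numbered pigs deviated from their group means with correlations of 0.00383, 0.0943 and 0.283. Replicates 1 and 2 of the UCP1 KI pigs did not correlate best with their own number, while replicate 3 did. With 3 pigs per group, such correlations cannot show whether the pigs were paired. With the replicate number as a block, 1 of the 8 genes passed, *ATF5*, and *PHGDH* was at -1.57. *MANF* (0.83) and *HSP90B1* (1.001) also lost their calls. Depth limits *PHGDH*, *GDF15*, *CBS* and *FGFR3*, where at least 1 pig had fewer than 10 counts.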

Other observations

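Of the list genes under the count filter, *SLC7A11*, the cystine transporter and a known ATF4 target, had 0, 6 and 0 counts in KI1 to KI3 and 8, 7 and 10 counts in WT1 to WT3. The groups did not overlap, with WT pigs higher, as they also did for 7.69% of all genes tested, which do not include *SLC7A11*. It did not pass both limits in the edgeR fit of all genes with any count. *GPT2*, the mitochondrial alanine aminotransferase, had 0 counts in all 3 UCP1 KI pigs and 4, 0 and 2 counts in WT1 to WT3, and *SLC43A1*, a neutral amino acid transporter, had 16 counts in KI2, 3 in WT2 and 0 in the other 4 pigs. *ALDH1L1*, a folate enzyme, had between 2 and 19 counts in the 6 pigs, and *SLC7A3* had 0 in each.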
